A study of Mus musculus with 3 samples.

Results

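The genes described here encode 4 lymphocyte receptors, Cd226, Tigit, Cd96 and Pvrig, and 4 ligands of this receptor network, Pvr, Nectin1, Nectin2 and Nectin3. These 8 genes were taken by name from the 32285 genes of the count tables. They were chosen with earlier results of these data known, by a rule that set no threshold on their values. They were followed across the leukocytes of pancreatic islets from female wild-type NOD mice, an inbred strain (non-obese diabetic) that develops autoimmune diabetes spontaneously. Live CD45+ cells, the leukocytes, were sorted from dispersed islets and profiled by droplet single-cell RNA sequencing of transcript 3′ ends in 3 libraries, called replicates 1, 2 and 3. All 3 belong to 1 group without treatment, so every comparison is between cell classes of the same libraries. Per the study's methods, islets of 2 to 3 mice aged 15 to 16 weeks were pooled for a library and the experiment was run 2 times. The labels used here do not tie a cell to a mouse or a library to an experiment. All p-values therefore measure only variation over these 3 libraries of pooled mice. In the main tests, which compared groups of cells within each library, this is how far their differences varied between libraries.

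CD226 is an activating receptor of T and natural killer (NK) cells, and TIGIT is an inhibitory receptor that competes with it for the same ligands, PVR (CD155) and NECTIN2 (CD112). CD96 also binds PVR, and in mice NECTIN1 as well, while PVRIG is an inhibitory receptor for NECTIN2. Nectins are adhesion molecules that bind one another across cell contacts, and NECTIN3 is a partner of NECTIN1 and NECTIN2.

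Like Cd226, the other 3 receptor genes had their UMIs almost wholly in T and NK-like cells and in cells of no class. For these 3, Tigit, Cd96 and Pvrig, upstream windows are shown. Each has 250 bases in the direction of the gene (RefSeq, GRCm38.p6), and capitals mark the RUNX core motif TGTGGT or its reverse complement ACCACA.
Tigit, chr16:43664185-43664434, minus strand: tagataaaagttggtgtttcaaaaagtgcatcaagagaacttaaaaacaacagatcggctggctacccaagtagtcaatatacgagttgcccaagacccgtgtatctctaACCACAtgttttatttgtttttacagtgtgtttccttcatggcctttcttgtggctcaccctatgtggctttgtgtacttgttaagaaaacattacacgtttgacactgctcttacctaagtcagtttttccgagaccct
Cd96, chr16:46120249-46120498, minus strand: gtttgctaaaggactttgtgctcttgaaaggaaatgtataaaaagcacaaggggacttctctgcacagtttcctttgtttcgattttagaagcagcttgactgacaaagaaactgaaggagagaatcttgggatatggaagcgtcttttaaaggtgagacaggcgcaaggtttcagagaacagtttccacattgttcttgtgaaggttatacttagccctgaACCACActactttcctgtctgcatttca
Pvrig, chr5:138341681-138341930, plus strand: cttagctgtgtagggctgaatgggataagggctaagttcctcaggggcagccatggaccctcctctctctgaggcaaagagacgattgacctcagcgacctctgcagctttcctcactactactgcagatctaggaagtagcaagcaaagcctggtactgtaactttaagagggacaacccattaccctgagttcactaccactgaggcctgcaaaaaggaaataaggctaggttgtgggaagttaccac
The motif occurred once in the Tigit window and once in the Cd96 window, both times on the other strand, and not in the Pvrig window. The match began 140 bases before the start of Tigit and 28 before that of Cd96. It was present on either strand in 14.0% of all 32851 RefSeq windows of this length. The windows held 5, 3 and 2 CpG dinucleotides, respectively, against a median of 6 over all windows.

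In the GENCODE M21 annotation of GRCm38, the assembly also named mm10 in the submitters' processing notes, Tigit (chr16:43648867-43664146), Cd96 (chr16:46035657-46120251) and Nectin3 (chr16:46387706-46498525) lie on the minus strand of chromosome 16. Nectin2 (chr7:19716644-19750483) and Pvr (chr7:19903578-19921160) lie on the minus strand of chromosome 7. Cd226 spans chr18:89176967-89272229, Pvrig chr5:138341961-138343557 and Nectin1 chr9:43743984-43807461, all on the plus strand.

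The 3 libraries held 26947 cells, of which 26142 had at least 1000 unique molecular identifiers (UMIs, one per captured transcript) and under 10% mitochondrial UMIs. Total UMIs per library ranged from 33851381 to 80806452, and the median per cell from 4230 to 6415. Cells were assigned to classes by a few defining transcripts. CD8 T cells (3258) had Cd3e and at least 2 UMIs of Cd8a and Cd8b1 without Cd4, CD4 T cells (5858) had Cd3e and Cd4 without Cd8a, Cd8b1 or Foxp3, and regulatory T cells (Treg, 1671) had Cd3e and Foxp3. B cells (4936) had at least 2 Cd79a UMIs without Cd3e, and macrophages (68) had at least 5 UMIs of C1qa and C1qb without Cd3e. NK-like cells (138) had at least 2 UMIs of Ncr1 and Klrb1c. Conventional dendritic cell-like (cDC-like) cells (202) had at least 2 UMIs of Flt3, Zbtb46, Xcr1, Clec9a and Cd209a together and at least 5 of H2-Aa. Both lacked Cd3e, had under 5 UMIs of C1qa and C1qb, and were described beside the other classes. Another 10070 kept cells met no rule. The 7 other T cell markers summed to 3972 to 5267 CPM (a gene's UMIs in the summed cells of a class and library, scaled to a common total) in every T class and library, against 181 to 280 CPM in B cells and 5.29 to 49.4 CPM in macrophages. The 5 other B cell markers summed to 2166 to 2365 CPM in B cells. In CD8 T, CD4 T and Treg cells these were 82.9 to 202.7, 178 to 315 and 238 to 538 CPM. The 5 other Treg markers summed to 1982 to 2410 CPM in Treg. They reached 767 to 1006 CPM in CD4 T and 532 to 671 CPM in CD8 T cells. The 7 macrophage markers summed to 11835 to 15916 CPM in macrophages, and the NK marker list to 3283 to 6444 CPM in NK-like cells. The 7 T cell markers summed to 999.5 to 1168 CPM there, with Cd2 at 70.0%, Trbc2 at 31.0% and Cd3g at 18.2% of the T class level and Cd5 at 0. The 7 cDC markers summed to 5770 to 8271 CPM in cDC-like cells and 2893 to 6618 CPM in macrophages, and these ranges overlapped. The macrophage markers summed to 307 to 679 CPM in cDC-like cells. The macrophage class was the thinnest, with 31, 10 and 27 cells, and transcripts of islet endocrine genes reached 1372 CPM in one of its sums. Pairs of libraries shared 12 to 29 cell barcodes, and 59 cells met the rules of both CD8 T cells and Treg and were counted in both.

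Among cells with a class, the 4 receptor genes were transcribed mainly in T and NK-like cells. There, Nectin1 had its highest level in cDC-like cells, and Pvr was found at some level in every class. Of 2232 Tigit UMIs in kept cells, 32.8% lay in CD4 T cells, 19.6% in Treg, 16.8% in CD8 T cells and 0.672% in B cells, although B cells made up 18.9% of cells. The cDC-like cells, 0.773% of cells, held 26.6% of 1113 Nectin1 UMIs. Cells of no class, 38.5% of cells, held 35.5% of the Nectin1 and 36.1% of the Pvr UMIs. They also held 39.2% of the Cd226, 34.0% of the Cd96, 29.2% of the Tigit and 29.2% of the Pvrig UMIs. Only 84 Nectin2 and 118 Nectin3 UMIs were counted in 26142 cells, against 2182 for Cd226, 3852 for Cd96, 1934 for Pvr and 250 for Pvrig. Counts of 3′ ends are not compared between genes as levels here, since capture differs from gene to gene.

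**Figure D1:**
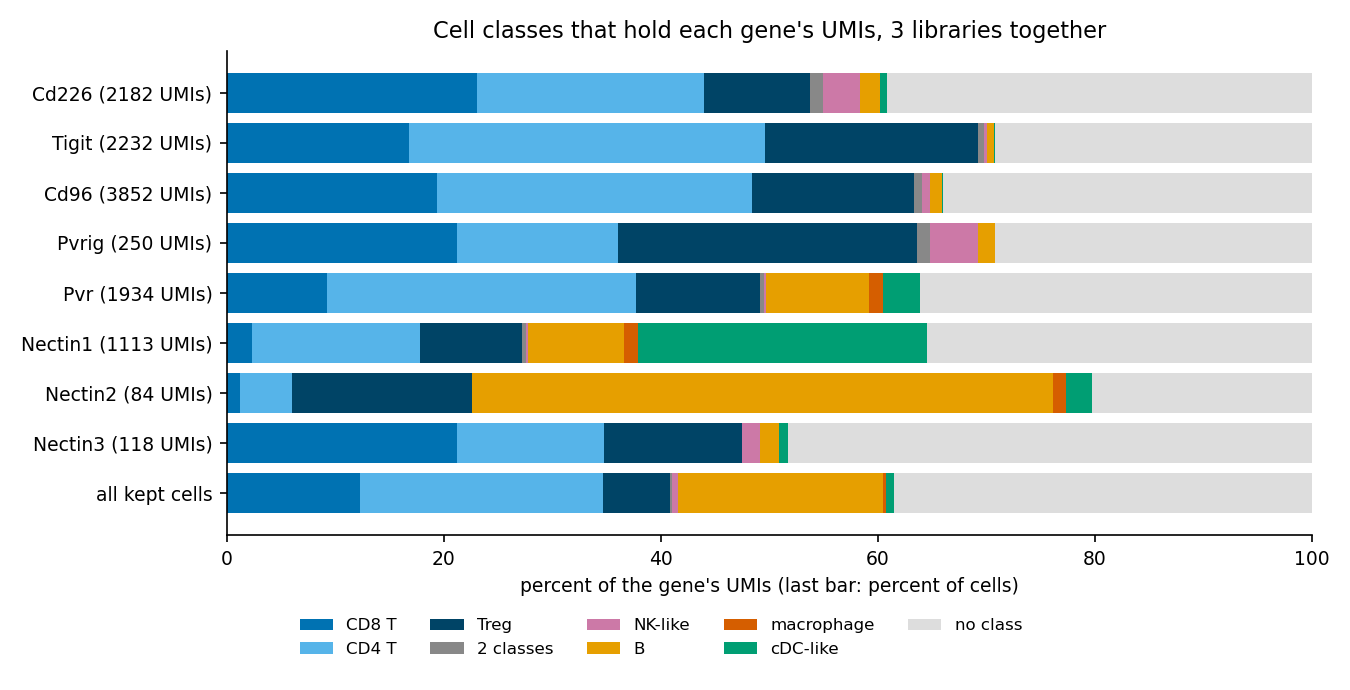
Each bar divides the UMIs of one gene over the cell classes that hold them, in percent, with the 3 libraries together, and the last bar divides the kept cells in the same way. The receptor genes Tigit and Cd96 lie almost wholly in T classes and unclassed cells. For Nectin1, cDC-like cells hold 26.6% of the UMIs and unclassed cells 35.5%.

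Cd226 was highest in NK-like cells and, among T cells, in CD8 T cells. Its level in NK-like cells was 86.1, 86.9 and 94.9 CPM in replicates 1, 2 and 3. CD8 T cells held 36.1, 14.3 and 18.3 CPM, CD4 T cells 13.1, 9.34 and 11.04 CPM, and Treg 8.26, 12.3 and 15.0 CPM. Every NK-like value lay above every CD8 T value, and CD8 T exceeded CD4 T in each library, whereas Treg and CD4 T overlapped. B cells held 0.569 to 1.80 CPM and cDC-like cells 4.77 to 5.74 CPM, and no Cd226 UMI was seen in 68 macrophages. Classes were compared on UMIs summed per class and library with edgeR's quasi-likelihood test across all genes, with the library as a block, and a Benjamini-Hochberg adjusted p under 0.05 over all genes tested was taken as passing. CD8 T cells exceeded CD4 T cells by 1.02 on the log2 scale (standard error 0.23, adjusted p = 0.0099), and Treg lay below CD8 T by a log2 change of -0.86 (SE 0.25, adjusted p = 0.031), with ranges that overlapped. Cd226 was the 1 member higher in CD8 T than in CD4 T cells, with 2 lower, among 7 tested, where 10.4% of all 12136 genes passed. NK-like cells exceeded CD8 T cells by a log2 change of 1.86 (SE 0.30, adjusted p = 2e-04), or 2.00 above the median gene of that comparison, in which 11.3% of genes passed and 2 of 7 members did. The CD8 T to CD4 T call did not pass without replicate 3 (adjusted p = 0.097) or without the block (0.13). The Treg to CD8 T call was lost in 8 of 13 alternatives: when any one library was left out (adjusted p = 0.063 to 0.1), without the block, under the study's cell limits, in cells of 2000 to 6000 UMIs, with stricter gates and in T cells with no UMI of H2-Aa, a class II antigen presentation gene (0.16, an alternative chosen after values were seen), while the NK-like call passed under every alternative tried.

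The levels of Cd226 within a class came from a minority of cells with UMIs. A Cd226 UMI was held by 11.7% ± 3.29 of CD8 T cells (SD, n = 3 libraries), with up to 11 in one cell, against 5.84% ± 0.637 of CD4 T cells and 26.9% ± 3.45 of NK-like cells. In B cells, gated without Cd3e, the share was 0.57% ± 0.11, at median depths of 4309 to 6784 UMIs against 5397 to 7665 in CD8 T cells. Each cell was then thinned to 1000 UMIs so that deep and shallow cells had the same chance. Thinned shares were 2.07% ± 0.875 in CD8 T and 0.995% ± 0.234 in CD4 T cells, higher in CD8 T in 3 of 3 libraries. The exact two-sided sign-flip test over 3 libraries gave p = 0.25, the smallest it allows. Cd226 in B cells stood at 8.05% of its mean T class level. Of the 7 T cell markers there, Cd2 stood at 18.04% and all others lower than Cd226, at 2.77% (Cd3g) to 5.26% (Lat). In cDC-like cells Cd226 stood at 33.5%, where the same 7 markers stood at 1.34 to 6.98%. The cDC-like value rests on 13 UMIs in 11 of 202 cells. In NK-like cells, 34 of 75 Cd226 UMIs lay in 15 cells with a UMI of Pdcd1, the gene of the inhibitory receptor PD-1. The other 123 NK-like cells stood at 45.5 to 80.4 CPM, and the 111 with no H2-Aa UMI at 65.0 to 93.2 CPM.

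Tigit was highest in Treg. Its level was 37.8, 24.9 and 20.9 CPM in Treg, 28.4, 19.9 and 11.4 CPM in CD4 T cells, and 18.2, 13.9 and 13.1 CPM in CD8 T cells. Treg were the highest T class in every library, and replicate 1 had the highest value in each class. Treg and CD8 T ranges did not overlap, whereas CD4 T overlapped both. Treg exceeded CD8 T by a log2 change of 0.65 (SE 0.18, adjusted p = 0.024), in a comparison where 15.4% of genes passed and 3 of 7 members were higher and 1 lower. That call was lost without any one library (adjusted p = 0.051, 0.19 and 0.053 without replicates 1, 2 and 3) and without the block (0.4). Against CD4 T cells the difference of 0.45 (SE 0.17, adjusted p = 0.17) did not pass. It was 0.96 (adjusted p = 0.0089) under the cell limits the study states and 0.85 (adjusted p = 0.022) in cells of 2000 to 6000 UMIs, both of which leave out deep cells. Treg cells had median depths of 4682 to 10106 UMIs per library, against 4549 to 6423 in CD4 T cells. After thinning, 3.52% ± 1.56 of Treg and 2.26% ± 1.21 of CD4 T cells held a Tigit UMI, a difference of 1.26 ± 0.506 percentage points seen in 3 of 3 libraries (exact sign-flip p = 0.25). Unthinned, the shares were 21.6% ± 1.94 and 11.5% ± 3.77.

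Few Tigit UMIs were counted in B cells and none in macrophages. B cells held 15 Tigit UMIs in 4936 cells, at 0.102 to 0.947 CPM, which is 2.12% of the mean T class level, a smaller percentage than for any of the 7 T cell markers. A Tigit UMI was seen in 0 of 68 macrophages. This allows a share of up to 4.41% of cells with a UMI and does not limit the share that express the gene. Pooled Treg stood at least 4.58-fold higher than the floor of 3 counts in macrophages. In NK-like cells the level was 18.4, 0 and 8.13 CPM from 6 UMIs. Its difference from CD8 T cells, a log2 change of -1.25 (SE 0.62, adjusted p = 0.24), did not pass. NK-like cells thus had the highest Cd226 level of the classes and few Tigit UMIs. Of 138 NK-like cells, 37 held Cd226 without Tigit, 6 Tigit without Cd226, and 0 both, with exact 95% binomial intervals that reached 6.98 to 8.60% in the single libraries and cover counting error only. With so few Tigit cells, and none in replicate 2, the 0 does not by itself show that NK-like cells with Tigit avoid Cd226.

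**Figure D2:**
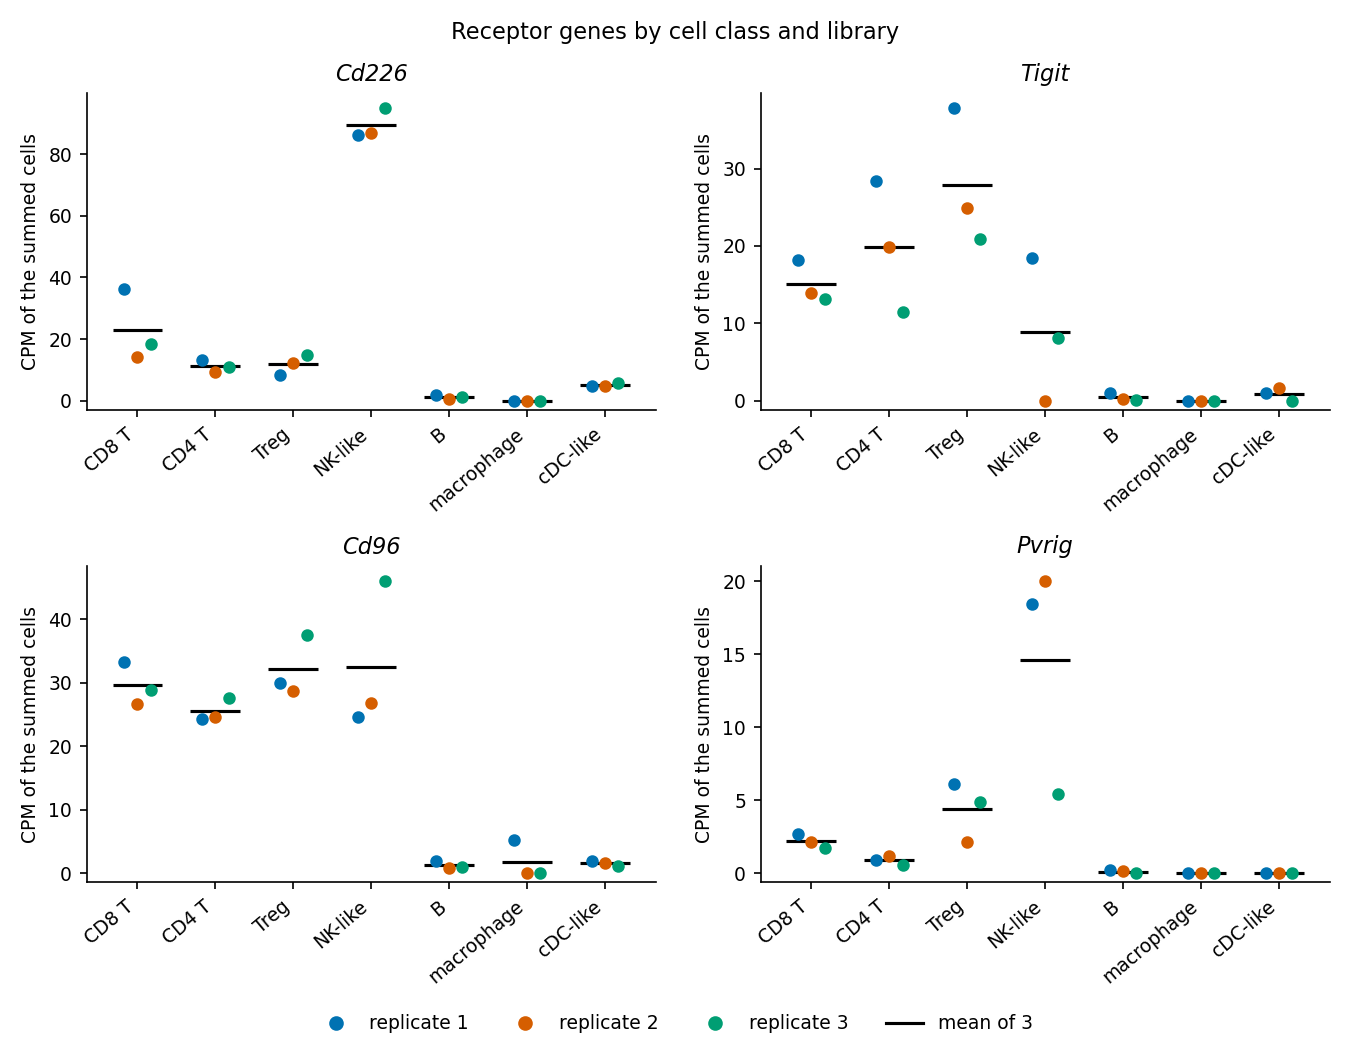
CPM of the 4 receptor genes in the summed cells of each class, with one point per library, a bar at the mean of 3 libraries, and a separate linear axis per gene. Cd226 reaches 86.1 to 94.9 CPM in NK-like cells, Tigit is highest in Treg in every library, and all 4 genes are near 0 in B cells and macrophages.

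Cd96 was found in every T class and in NK-like cells, with means between 25.5 and 32.5 CPM. It stood at 33.2, 26.6 and 28.9 CPM in CD8 T, 24.2, 24.6 and 27.6 CPM in CD4 T, 30.0, 28.7 and 37.6 CPM in Treg and 24.6, 26.7 and 46.1 CPM in NK-like cells. Every Treg value lay above every CD4 T value, the other ranges overlapped, and no difference passed. The log2 change was 0.29 (SE 0.14, adjusted p = 0.24) from CD4 T to CD8 T cells, 0.25 (SE 0.14, adjusted p = 0.39) from CD4 T to Treg, and -0.03 (SE 0.15, adjusted p = 0.94) from CD8 T to Treg. The last value was 0.06 without replicate 1. From CD8 T to NK-like cells the change was -0.02 (SE 0.29, adjusted p = 1), and it turned positive under other scalings (0.07 with DESeq2's size factors). It was -1.06 under the study's cell limits and -1.27 in cells of 2000 to 6000 UMIs, neither passing (for Cd96, NK-like against CD8 T, the lowest adjusted p was 0.11). In B cells Cd96 was 0.782 to 1.99 CPM, and one UMI was found in macrophages.

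Pvrig, the least counted receptor gene, was higher in Treg than in CD4 T cells. Its level was 6.09, 2.17 and 4.87 CPM in Treg, 2.69, 2.13 and 1.76 CPM in CD8 T and 0.872, 1.17 and 0.594 CPM in CD4 T cells. Every Treg value lay above every CD4 T value. The log2 change was 2.11 (SE 0.44, adjusted p = 0.013), and Pvrig was the 1 member of 7 that passed between Treg and CD4 T cells, where 5.72% of all genes did. NK-like cells held 18.4, 20.1 and 5.42 CPM, from 11 UMIs in 9 cells, and exceeded CD8 T by 2.40 (SE 0.68, adjusted p = 0.028). Both calls were sensitive to the libraries. Without replicates 1, 2 and 3 the NK-like call had adjusted p = 0.15, 0.28 and 0.051, it was 0.36 under the study's cell limits and 0.4 in cells with no H2-Aa UMI, and the Treg call failed without replicate 1 (0.064), without replicate 3 (0.3) and without the block (0.079).

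All 4 receptor genes were lower in B cells than in T cells. The log2 change from the mean of the T classes to B cells was -5.39 for Tigit (SE 0.27, adjusted p = 1.3e-09), -4.42 for Cd96 (SE 0.19, adjusted p = 4.4e-11), -3.87 for Pvrig (SE 0.59, adjusted p = 7.4e-05) and -3.52 for Cd226 (SE 0.30, adjusted p = 2.7e-07). All 4 calls held under every alternative tried. Of 7 members tested, 5 were lower in B cells and 1 higher, in a comparison where 56.9% of all genes passed. In macrophages Cd226 and Tigit had no UMI, so the fitted changes are no bounds: pooled CD8 T cells stood at least 3.64-fold above the macrophage floor for Cd226 and CD4 T cells at least 3.17-fold for Tigit. Both passed as lower (adjusted p = 0.039 and 0.0053), as did Cd96 with a log2 change of -4.03 (SE 0.85, adjusted p = 0.0014). Between macrophages and the mean of the T classes 35.8% of genes passed, and 3 members were lower and 2 higher. The Cd226 call did not pass without replicate 2 (adjusted p = 0.054) or replicate 3 (0.15), and none of these 3 receptor calls passed under the study's cell limits, which leave the macrophages of 1 library.

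The receptors were next related to PD-1, the inhibitory receptor encoded by Pdcd1 that marks antigen-experienced T cells. Each T class was divided into cells with and without a Pdcd1 UMI. Tigit was higher with Pdcd1 in both conventional T cell classes. In CD8 T cells it was 23.2, 23.3 and 24.3 CPM with and 13.3, 9.05 and 6.55 CPM without a Pdcd1 UMI, and the 2 sets of values did not overlap. In CD4 T cells it was 38.9, 32.9 and 21.02 CPM with and 22.4, 11.3 and 4.85 CPM without, higher in each library. The log2 change was 1.23 (SE 0.29, adjusted p = 0.0071) in CD8 T cells and 1.30 (SE 0.24, adjusted p = 0.001) in CD4 T cells. In CD8 T cells Tigit was the 1 member of 6 tested that passed, where 13.6% of 10839 genes did. In CD4 T cells 15.6% of genes passed, and Pvrig did so too: it was 1.44, 2.79 and 1.22 CPM with and 0.547, 0.098 and 0.167 CPM without a Pdcd1 UMI, a log2 change of 2.93 (SE 0.64, adjusted p = 0.0037) resting on 32 UMIs against 5 that did not pass without replicate 2 (adjusted p = 0.12) or replicate 3 (0.071). In CD8 T cells the Pvrig change of 1.33 (SE 0.50, adjusted p = 0.09) did not pass.

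In Treg the same split gave 30.0, 26.7 and 25.7 CPM of Tigit with and 45.5, 21.1 and 11.8 CPM without a Pdcd1 UMI. Tigit was lower with Pdcd1 in replicate 1 and higher in the others, and the log2 change of 0.31 (SE 0.29, adjusted p = 0.81) did not pass and was -0.10 without replicate 3. None of 6 members passed in Treg by edgeR's test, where 0.6% of genes did, 65 in all against 1085 at an unadjusted p under 0.05 and 107 by DESeq2. No Cd226 difference by Pdcd1 passed. In CD8 T cells it was 44.6, 13.5 and 17.2 CPM with and 27.9, 14.7 and 19.0 CPM without, higher with Pdcd1 in replicate 1 alone, a log2 change of 0.03 (SE 0.26, adjusted p = 0.98) that was -0.32 without replicate 1. In CD4 T cells it was 9.61, 10.3 and 10.5 CPM with and 15.0, 8.72 and 11.4 CPM without, a log2 change of -0.26 (SE 0.27, adjusted p = 0.59). The difference of the Pdcd1 effect between CD8 T and CD4 T cells was tested as an interaction. It was -0.07 (SE 0.38, adjusted p = 1) for Tigit and 0.29 (SE 0.37, adjusted p = 0.99) for Cd226, and 0% of genes passed in it by edgeR, 691 having an unadjusted p under 0.05 and 22 passing by DESeq2.

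Cells with a Pdcd1 UMI were deeper, with median depths of 5896 to 8834 UMIs against 4932 to 7336 in CD8 T cells. The part of depth in the Tigit result was not tested beyond the alternatives: in cells of 2000 to 6000 UMIs Tigit kept its direction and its call in both classes. The call in CD8 T cells was lost without replicate 2 (adjusted p = 0.11), without replicate 3 (0.056) and without the block (0.25), and in CD4 T cells without replicate 2 (0.07) and without the block (0.23).

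**Figure D3:**
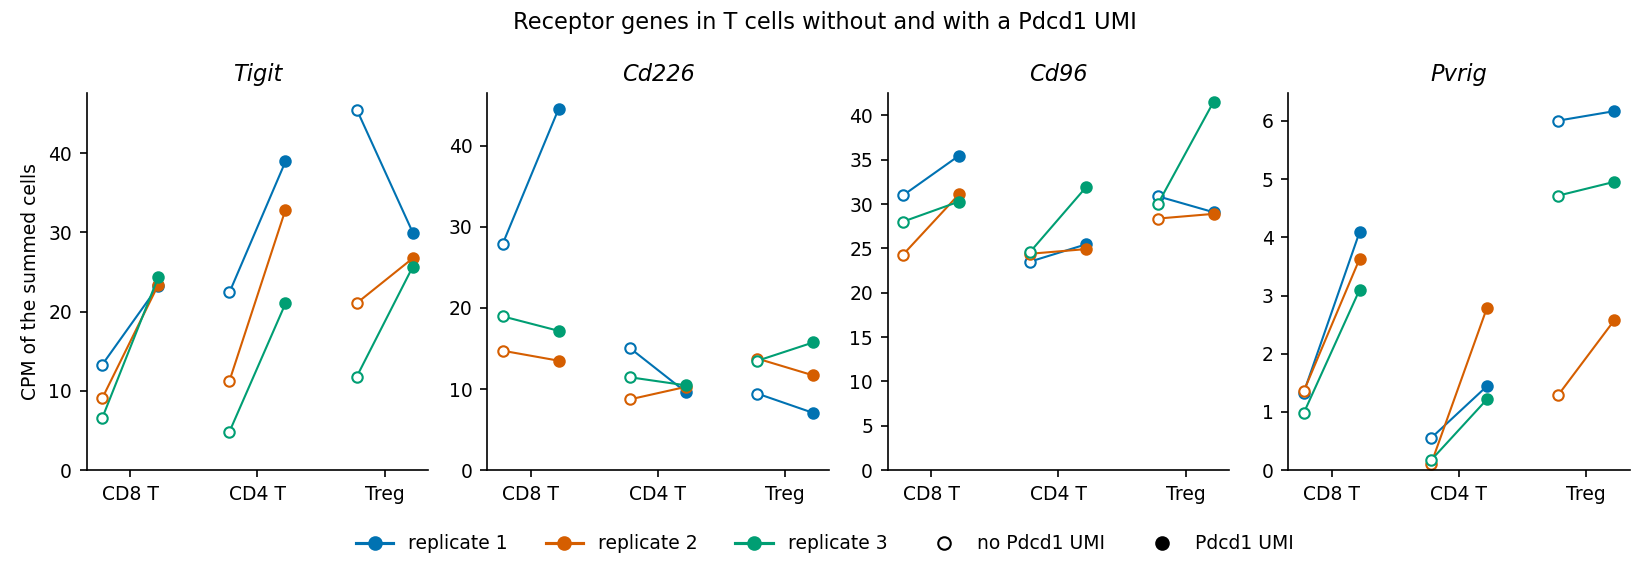
CPM of the receptor genes in the summed cells of each T class without (open points) and with (filled points) a Pdcd1 UMI, joined within each library. Tigit rises in all 3 libraries in CD8 T and CD4 T cells, whereas Cd226 in CD8 T cells rises in replicate 1 and not in the others.

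Dividing CD8 T cells by Eomes, a transcription factor of effector and memory T cells, gave a higher mean of Tigit and a lower mean of Cd226 in the cells with Eomes. Over 3 libraries Tigit averaged 22.7 ± 2.02 CPM with and 11.2 ± 5.005 CPM without an Eomes UMI. Cd226 averaged 13.8 ± 3.40 CPM with and 28.1 ± 16.9 CPM without, and Cd96 25.8 ± 5.31 and 31.9 ± 8.35 CPM. In CD4 T cells, of which 404 held an Eomes UMI, Tigit averaged 39.2 ± 18.5 CPM with and 18.3 ± 7.81 CPM without, and Cd226 4.53 ± 2.23 and 11.7 ± 2.04 CPM. In Treg the order of the means was the other way, with Tigit at 23.3 ± 3.64 CPM with and 28.1 ± 9.07 CPM without and Cd226 at 14.9 ± 14.2 and 11.1 ± 2.29 CPM. The sign varied between libraries, however, with differences of -14.0 to 1.51 CPM for Tigit and -8.57 to 15.4 CPM for Cd226. Only 115 Treg held an Eomes UMI, at median depths of 11895 to 15440 UMIs per library against 4613 to 9813 in the others. The ranges of Tigit in CD8 T cells (20.4 to 23.9 against 7.51 to 16.9 CPM) and of Cd226 in CD4 T cells (2.40 to 6.85 against 9.86 to 13.9 CPM) did not overlap. The ranges of Cd226 in CD8 T cells (10.6 to 17.4 against 16.1 to 47.4 CPM) did. In NK-like cells Cd226 averaged 59.4 ± 24.7 CPM in 86 cells with and 136 ± 51.3 CPM in 52 cells without an Eomes UMI. These splits are descriptions and were not tested.

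Few cells held both Cd226 and Tigit UMIs. Among CD8 T cells 321 held Cd226 alone, 291 Tigit alone and 31 both, and among CD4 T cells these numbers were 300, 572 and 32. Treg had 137, 319 and 36. Of the cells with Tigit, 9.63% in CD8 T, 5.30% in CD4 T and 10.1% in Treg also held Cd226. Without thinning, the mean share with Cd226 in CD8 T cells was 10.6% ± 4.84 with and 11.8% ± 3.16 without a Tigit UMI. It was 4.80% ± 2.31 against 6.02% ± 1.13 in CD4 T and 9.15% ± 4.22 against 9.70% ± 3.10 in Treg. The small counts of both thus do not by themselves show that cells with Tigit avoid Cd226. CD8 T cells with Tigit were deeper, with medians of 6155 to 9439 UMIs against 5271 to 7530.5. Tigit in cells with minus without a Cd226 UMI was -9.76 to -0.677 CPM in CD8 T and -23.2 to -3.17 CPM in CD4 T. In Treg it was -21.5 to -3.94 CPM. For Cd226 in cells with minus without a Tigit UMI, the values were -7.98 to 1.11, -9.66 to 1.90 and -5.12 to -3.69 CPM, respectively. These differences in CPM were not tested. With all cells thinned to 1000 UMIs, the share with a Cd226 UMI was lower among cells with than without a Tigit UMI in every T class and every library. It was 1.26% ± 0.478 against 2.09% ± 0.890 in CD8 T, 0.544% ± 0.440 against 1.01% ± 0.258 in CD4 T and 0.84% ± 0.253 against 1.35% ± 0.135 in Treg. The exact sign-flip test gave p = 0.25 in each class, the smallest that 3 libraries allow. Thinned shares are expected values, and very few cells are expected to keep both UMIs. Even thinned to 2000 UMIs, these were 0.0385 to 0.13% of CD8 T, 0.00612 to 0.0553% of CD4 T and 0.0971 to 0.124% of Treg cells. The shared direction after thinning therefore rests on very few cells. Without replicate 1 the difference was -0.475 percentage points in place of -0.822 in CD8 T, -0.0748 in place of -0.467 in CD4 T and -0.301 in place of -0.511 in Treg. Only 3 CD4 T cells of replicate 1 held both UMIs. Unthinned, the direction was mixed, lower with Tigit in 1 of 3 libraries in CD8 T and 2 of 3 in CD4 T and Treg, and in CD4 T cells of replicate 2 the share was 6.77% with and 5.14% without a Tigit UMI.

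Among the ligand genes, Pvr was highest in macrophages and cDC-like cells. Macrophages held 68.7, 31.7 and 33.0 CPM and cDC-like cells 24.3, 35.0 and 21.8 CPM, from 25 UMIs in 14 cells and 66 UMIs in 54 cells. Both lay above every T, NK-like and B cell value, and they overlapped each other. Macrophages exceeded the mean of the T classes by a log2 change of 2.14 (SE 0.40, adjusted p = 0.00054), or 2.67 above the median gene of that comparison. They exceeded B cells by 2.92 (SE 0.44, adjusted p = 7.5e-05), where 35.9% of genes passed and the 2 members that did, Pvr and Nectin1, were both higher. Neither Pvr call passed under the study's cell limits (adjusted p = 0.51 and 0.27), with 1 library of macrophages. The cDC-like cells did not differ from macrophages past the threshold (log2 change -0.75, SE 0.43, adjusted p = 0.26).

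Pvr was also present in the T classes, which carry transcripts of its receptors, and in B cells. It was 10.1, 12.8 and 13.6 CPM in CD4 T cells, 9.13, 11.8 and 13.8 CPM in Treg, 6.51, 5.77 and 8.01 CPM in CD8 T cells and 6.72, 4.26 and 5.31 CPM in B cells. Every CD4 T and Treg value exceeded every CD8 T and B cell value. The log2 change from CD4 T to CD8 T cells was -0.78 (SE 0.20, adjusted p = 0.018), and from the T class mean to B cells it was -0.78 too (SE 0.17, adjusted p = 0.0013), while the change of 0.64 from CD8 T to Treg (SE 0.21, adjusted p = 0.057) did not pass. The CD8 T call did not pass without replicate 2 (adjusted p = 0.34), without replicate 3 (0.18), without the block (0.15) or under the study's cell limits (0.24), and the B cell call not without replicate 2 (0.06) or replicate 3 (0.055). The UMIs were spread over many cells: of 551 in CD4 T cells, 92.9% came from cells with 1 or 2, and Pvr stood at 12.9 ± 2.27 CPM in CD4 T cells that held no H2-Aa UMI.

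Among cells with a class, Nectin1 was the ligand gene with the clearest source. It reached 84.6, 159 and 125 CPM in cDC-like cells, where 109 of 202 cells held a UMI, and 21.1, 39.6 and 24.7 CPM in macrophages, where 9 of 68 did. All other named classes stayed at or under 7.15 CPM in every library. The log2 change from macrophages to cDC-like cells was 2.18 (SE 0.51, adjusted p = 0.0036), or 1.89 above the median gene, and Nectin1 was the 1 member of 7 to pass where 20% of 11877 genes did. The call did not pass without replicate 3 (adjusted p = 0.07). Macrophages exceeded the mean of the T classes by 3.07 (SE 0.64, adjusted p = 0.0012) and B cells by 3.09 (SE 0.66, adjusted p = 0.0016), resting on 15 UMIs, and neither passed under the study's cell limits (adjusted p = 0.13 and 0.23).

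**Figure D4:**
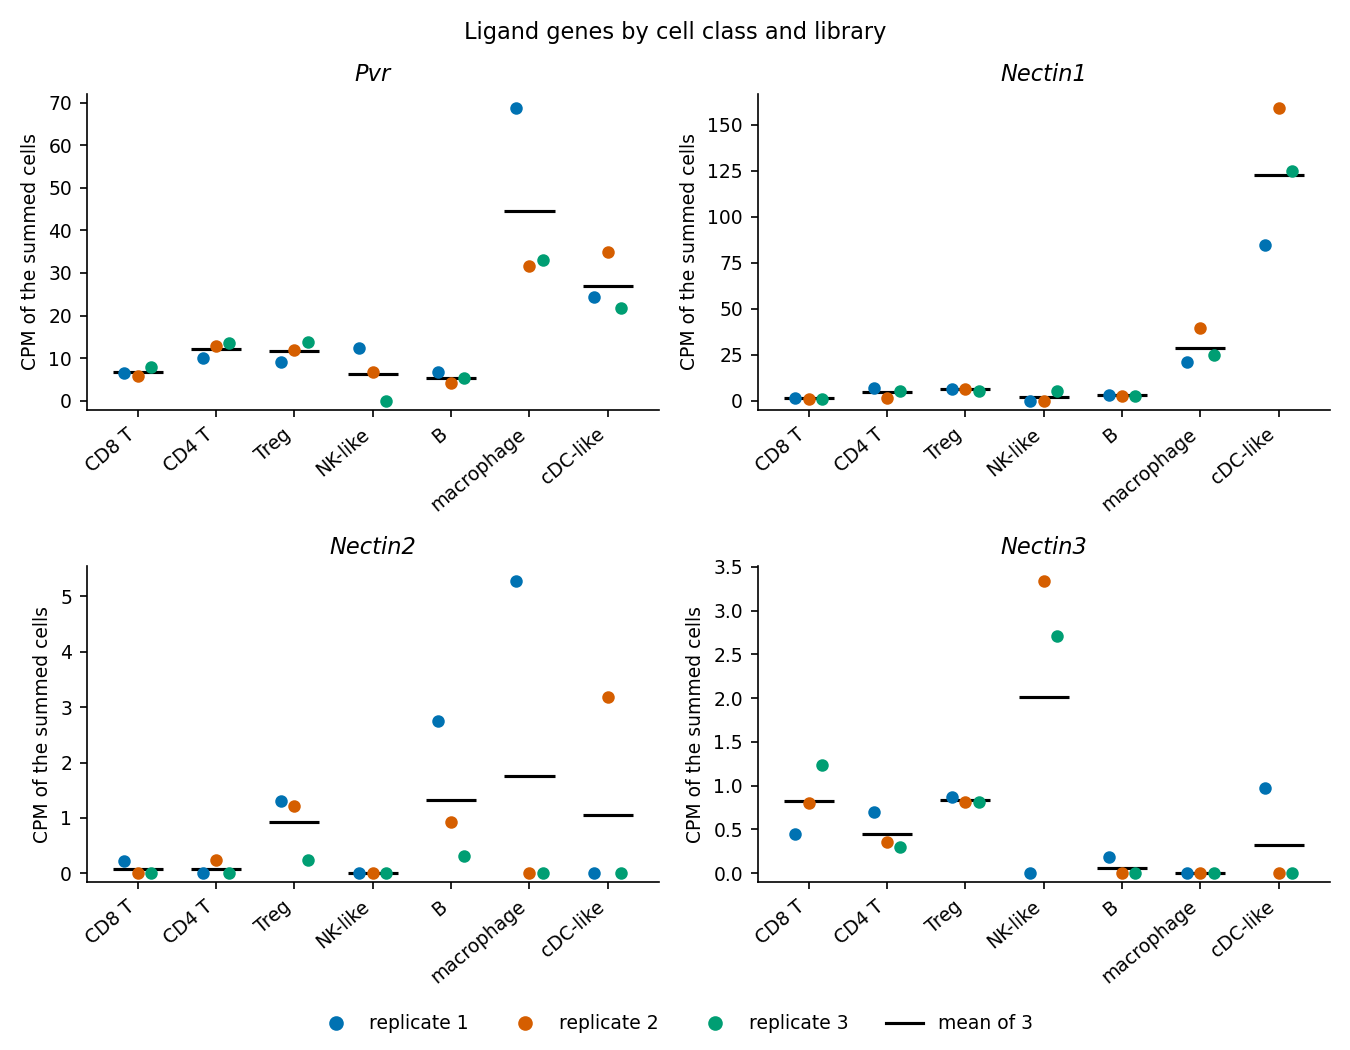
CPM of the 4 ligand genes in the summed cells of each class, with one point per library, a bar at the mean of 3 libraries and a separate linear axis per gene. Nectin1 is highest in cDC-like cells (84.6 to 159 CPM) and Pvr in macrophages and cDC-like cells, while Nectin2 and Nectin3 stay at or under 5.29 CPM in every class.

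In T cells the Nectin1 UMIs moved with dendritic cell transcripts. Its level was 1.57, 1.15 and 0.88 CPM in CD8 T, 7.15, 1.64 and 5.10 CPM in CD4 T and 6.52, 6.51 and 5.34 CPM in Treg, and it passed as lower in CD8 T than in CD4 T cells (log2 change -1.74, SE 0.41, adjusted p = 0.012) and as higher in Treg than in CD8 T cells (2.23, SE 0.42, adjusted p = 0.0019). Of the CD4 T cell UMIs, however, 51.2% of 172 came from 19 cells with 3 or more. These 19 cells had a median of 22405 UMIs, against 5730 in CD4 T cells without Nectin1. All of them held H2-Aa, and 57.9% held Flt3, a receptor of dendritic cells, against 22.2% and 1.21% of CD4 T cells without Nectin1. In Treg the 16 such cells held 59.6% of the class's Nectin1 UMIs, and all of them held H2-Aa. In T cells with no H2-Aa UMI Nectin1 averaged 0.758 ± 0.660 CPM in CD4 T, 0.64 ± 0.563 CPM in Treg and 0.368 ± 0.384 CPM in CD8 T cells. Neither difference passed there (adjusted p = 0.45 and 0.72), nor under the study's cell limits (0.69 and 0.63), and the difference between CD8 T and CD4 T cells did not pass without replicate 1 (0.072) or replicate 3 (0.33). B cells, at 3.13, 2.77 and 2.65 CPM, showed no difference past the threshold from the T class mean over all cells (log2 change -0.02, SE 0.34, adjusted p = 0.97), and stood above it by 2.19 (adjusted p = 0.00012) when the T cells with H2-Aa were left out. That filter left the B cells whole, so the 2 sides were not treated alike. The 5 B cells with 3 or more Nectin1 UMIs held 19.4% of the class's Nectin1 UMIs. They had a median of 19662 UMIs, and 60% held Flt3, against 5735 UMIs and 7.34% in B cells without Nectin1. Fscn1, another dendritic cell gene, went the other way in these 5 cells, of which 0% held it. It was held by 12.9% of B cells with 1 or 2 Nectin1 UMIs and 1.32% of those without.

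**Figure D5:**
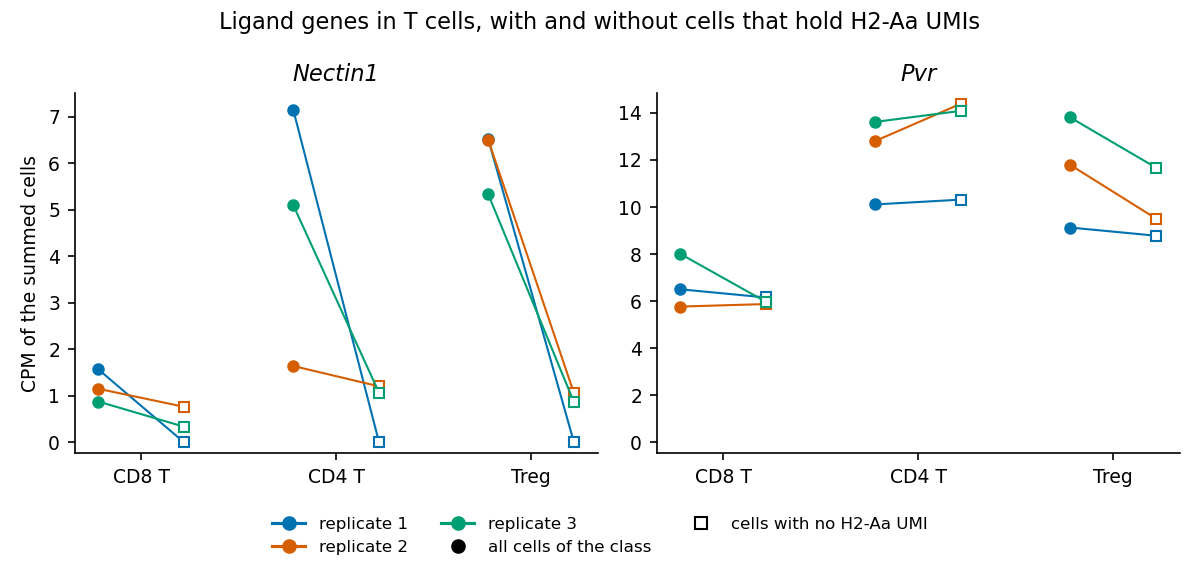
CPM of Nectin1 and Pvr in each T class over all cells (filled circles) and over cells with no H2-Aa UMI (open squares), joined within each library. Nectin1 falls to at most 1.21 CPM in every class, while Pvr stays between 5.88 and 14.4 CPM.

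Nectin2 and Nectin3 were hardly counted. Nectin2 was 2.75, 0.924 and 0.306 CPM in B cells and 1.30, 1.22 and 0.232 CPM in Treg, at most 0.235 CPM in CD8 T and CD4 T cells, and at 0 in NK-like cells. B cells passed above the T class mean (log2 change 2.69, SE 0.54, adjusted p = 0.00051) with 45 UMIs in 28 cells. Treg passed above CD8 T cells (3.85, SE 1.02, adjusted p = 0.018), but on 14 UMIs in 6 Treg cells, 6 of them in a single cell, against 1 UMI in CD8 T cells. No T cell without H2-Aa held a Nectin2 UMI, and the Treg call was lost without replicate 2 (adjusted p = 0.29), without replicate 3 (0.12) and without the block (0.19). Nectin2, the shared ligand gene of CD226, TIGIT and PVRIG, thus had few UMIs in every class. Nectin3 never exceeded 3.34 CPM and was below the count filter, so it was not tested. CD8 T cells held 25 Nectin3 UMIs in 22 cells, CD4 T cells 16 in 16 and Treg 15 in 15, and macrophages held 0.

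Beyond the 8 members, other nectin-family and adhesion genes (Nectin4, Crtam, Cadm1 to Cadm4 and Afdn) and genes of signalling partners of these receptors (Fyn, Vav1, Grb2, Itgal, Itgb2, Inpp5d, Arrb2, Ptpn6 and Ptpn11) were followed as 2 lists. Crtam, a receptor of cytotoxic lymphocytes that binds CADM1, was 31.9, 9.50 and 13.2 CPM in CD8 T cells against 2.48 to 3.31 CPM in CD4 T cells. It exceeded CD4 T cells by a log2 change of 2.42 (SE 0.30, adjusted p = 0.00014) and was lower in Treg than in CD8 T cells by a log2 change of -2.96. Its ligand gene Cadm1 was 124.5, 237 and 242 CPM in cDC-like cells and 79.3, 47.6 and 98.9 CPM in macrophages, against 0.924 to 7.83 CPM in T and B cells. Macrophages exceeded the T class mean in 3 of the 5 adhesion genes tested, Cadm1 (3.98), Nectin4 (7.21, from 9 macrophage UMIs) and Afdn, with none lower, where 35.8% of all genes passed, the median of the 5 being 2.05 against -0.53 over all genes. Afdn, which encodes afadin, the intracellular anchor of nectins, was 73.9, 106.6 and 118 CPM in cDC-like cells, 2.34 above macrophages (SE 0.42, adjusted p = 0.00035). It was also 36.9, 20.1 and 43.4 CPM in NK-like cells, 2.09 above CD8 T cells (SE 0.41, adjusted p = 0.0011), a call that did not pass without replicate 3 (0.1) or under the study's cell limits (0.19).

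Among the 9 signalling genes, CD8 T and CD4 T cells with a Pdcd1 UMI had more of the integrin chain Itgb2 and the kinase Fyn. Of CD8 T cell values, 3 of 9 passed as higher and none as lower, where 13.6% of all genes did, with a median of 0.23 against -0.01 over all genes. Of CD4 T cell values, 4 of 9 passed as higher, where 15.6% of all genes passed, with a median of 0.23. Of Treg values, 0 of 9 passed, where 0.6% of all genes did, with a median of 0.04. Itgb2, the beta chain of LFA-1, rose by 0.53 in CD8 T (SE 0.12, adjusted p = 0.0042) and 0.54 in CD4 T cells (SE 0.11, adjusted p = 0.0021). These calls did not pass without replicate 2 (adjusted p = 0.1 and 0.12), replicate 3 (0.1 and 0.15) or the block (0.38 and 0.46). Fyn rose by 0.52 in CD8 T (SE 0.09, adjusted p = 5e-04) and 0.41 in CD4 T cells (SE 0.09, adjusted p = 0.0023). Its calls did not pass without replicate 3 (0.069 and 0.18) or the block (0.16 and 0.35), nor in CD4 T cells without replicate 2. In Treg against CD4 T cells Grb2, an adaptor, and Inpp5d, the lipid phosphatase SHIP1, were higher (0.53 and 0.39) and Ptpn11, the phosphatase SHP-2, lower (-0.68), the other 6 not passing. All 3 calls failed without replicate 2, without replicate 3 and without the block, with adjusted p of up to 0.25 for Grb2, 0.61 for Inpp5d and 0.083 for Ptpn11, and Inpp5d failed in 6 of 13 alternatives in all. In B cells, 4 of 9 were higher and 4 lower than in T cells, where 56.9% of all genes passed. Inpp5d (1.67) and Ptpn6, the phosphatase SHP-1 (2.06), were among those higher, and Itgal, the alpha chain of LFA-1 (-1.67), among those lower.

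The genes most like each member were ranked by Pearson's r of log2 CPM over the 15 sums of 5 classes and 3 libraries, as a description in which the large class differences and shared libraries fix most of the value. Tigit was closest to Gprin3 (0.992), Kremen2 (0.991) and Trbv13-2 (0.991), Cd226 to Plod2 (0.991) and Slc35g1 (0.988), and Cd96 to Sla2 (0.99). Pvrig was closest to Arhgef5 (0.972), with Itgae, which encodes the integrin chain CD103, among its 5 nearest (0.962). Pvr was closest to Itm2b (0.965), Nectin1 to Ifitm3 (0.975) and Nectin2 to Aldh3b1 (0.865).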

How the data were processed

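UMI counts of 32285 genes per cell were used as deposited by the authors, per the submitters' processing notes made with Cell Ranger 6.0.1 on mm10. Cells with at least 1000 UMIs and under 10% mitochondrial UMIs were kept, and classes were set by marker UMIs. No doublet caller was run, and stricter gates were an alternative. Counts were summed per class and library, 10 cells being the least for a sum, and compared across all genes with edgeR 4.0.16 (R 4.3.3; TMM, low-count filter, quasi-likelihood test, Benjamini-Hochberg adjustment). The library was a block because the classes of a library come from the same pooled mice. Deviations of classes of the same library correlated at a mean r of 0.289 (0.028 to 0.684, 30 pairs), against -0.131 between libraries (60 pairs). Deviations were taken from class means over the same libraries. This pulls the value between libraries negative, so it is no independent contrast. SE is the log2 change divided by the root of F. Total UMIs per library, 33851381 to 80806452, limit the precision.

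The model was run on simulated counts in which the classes shared the same mean profile, apart from genes changed on purpose. The changed genes were all above the median count, and no library effect was put in. This run therefore does not cover genes below that count or differences between libraries. Alternatives were no block, no filter, other scalings, DESeq2 1.42.0, each library left out, the study's cell limits, cells of 2000 to 6000 UMIs, cells of 2 classes left out, stricter gates and, chosen after seeing the data, T and NK-like cells with no H2-Aa UMI. The members and gene lists were chosen with earlier results of these data known. All 8 members are named by rule. Of the listed pathway genes that passed and the 5 genes most like each member, only a selection is named. Shares were compared in cells thinned to 1000 UMIs, with Python 3.11.15 and scipy 1.17.1. A count of 0 was set to a floor of 3 counts over the class. The number of columns of samples that could not be mapped was 0.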

Additional observations from a re-analysis of the deposited data

How the results depend on the processing

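All 27 member calls kept their direction under every alternative in which they were tested, and 6 kept their call under each of these. An alternative in which a gene was not tested was not counted as ending its call. The Nectin2 calls, B against the T class mean and Treg against CD8 T, were retested in only 8 alternatives, against up to 13 for other calls. Leaving out replicate 1, 2 or 3 ended 5, 10 and 13 calls, the study's cell limits 12, cells of 2000 to 6000 UMIs 12, T and NK-like cells with no H2-Aa UMI 4 and stricter gates 1. The other scalings, no filter, DESeq2 and leaving out cells of 2 classes ended 0. The mean differences of 9 shares of cells kept their sign in 63 alternatives, though 3 libraries allow no p below 0.25, so no call could change. Fewer libraries followed them without thinning, 1 of 3 for Cd226 by Tigit in CD8 T cells. The study's limits and the 2000 to 6000 UMI range ended the same 12 calls. They left no library with the 10 cDC-like cells needed for a sum and 1 with 10 macrophages, so cDC-like cells could not be compared, and the macrophage tests rest on that 1 library, assumed to vary like the other classes. The cause of these changes was not tested.

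Without the replicate block 8 calls were lost. The genes called fell to 106 for Treg against CD4 T, 395 for CD8 T against CD4 T, 676 for Treg against CD8 T, 180 for Pdcd1 in CD8 T and 180 in CD4 T, and 1 in Treg, and the Tigit interaction was 0.012.

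Genes called with 1 library left out ranged from 122 to 1104 (Treg against CD4 T), 406 to 1553 (CD8 T against CD4 T), 707 to 2296 (Treg against CD8 T), 347 to 1774 (Pdcd1 UMI against none in CD8 T), 361 to 2315 (Pdcd1 UMI against none in CD4 T), 1 to 227 (Pdcd1 in Treg), 0 to 108 (interaction), 688 to 1352 (NK-like against CD8 T) and 1107 to 1789 (cDC-like against macrophage). With no filter 1144 genes were called for Treg against CD4 T, 304 for Pdcd1 in Treg and 161 for the interaction. DESeq2 called 107 and 22 for the last pair. The study's limits and the 2000 to 6000 UMI range gave 725 and 839 (CD8 T against CD4 T), 1397 and 1407 (macrophage against the T class mean), 1377 and 1372 (macrophage against B), 750 and 810 (Pdcd1 in CD8 T), 25 and 27 (Pdcd1 in Treg) and 14 and 12 (interaction). The interaction had 2 calls with stricter gates, 2 without cells of 2 classes and 6 in cells with no H2-Aa UMI.

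Values that did not pass changed sign as follows. Nectin1, Treg against CD4 T, was -0.32 in cells with no H2-Aa UMI and -0.085 to 0.85 with 1 library left out. Cd96 in Treg against CD8 T was 0.10 with stricter gates, 0.16 with no H2-Aa UMI and -0.18 to 0.058 with 1 library left out. Nectin1, B against the T class mean, was 0.016 with no filter, 1.08 under the study's limits, 0.030 without cells of 2 classes, 1.63 in the 2000 to 6000 UMI range, 2.19 with no H2-Aa UMI in the T cells and B cells left whole, and -0.14 to 0.095 with 1 library left out. Cd226 by Pdcd1 in CD8 T was -0.41 under the study's limits, -0.34 in the UMI range and -0.32 to 0.22, and Cd226, Pdcd1 difference CD8 T minus CD4 T, -0.20, -0.00043 and -0.17 to 0.64. Tigit by Pdcd1 in Treg was -0.095 to 0.66, and Tigit, Pdcd1 difference CD8 T minus CD4 T, 0.15, 0.065 and -0.14 to 0.021. Cd96 in NK-like against CD8 T was 0.068 with DESeq2's size factors, 0.022 on total UMIs, 0.053 by DESeq2 and -0.42 to 0.091 with 1 library left out.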

Other observations

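CD8 T and CD4 T cells that held a Tigit UMI also had more transcripts of other inhibitory receptors. In CD8 T cells with a Tigit UMI, Pdcd1 averaged 315 CPM against 167 CPM in those without, Lag3 116.5 against 62.6 CPM, Havcr2, which encodes TIM-3, 71.5 against 24.3 CPM, and Tox, a transcription factor of persistently stimulated T cells, 152 against 78.5 CPM, each higher in 3 of 3 libraries. The interleukin-7 receptor gene Il7r averaged 137 against 241 CPM, lower in all 3. In CD4 T cells with a Tigit UMI, Lag3 averaged 157 against 73.6 CPM and Il7r 182 against 404 CPM, again in the same direction in 3 of 3 libraries. In Treg Lag3 was higher with Tigit in 3 of 3 libraries (125 against 89.2 CPM), Pdcd1 (264 against 202 CPM) and Havcr2 (62.4 against 38.0 CPM) in 2 of 3, and Tox (130.6 against 130.7 CPM) and Il7r (179 against 184 CPM) had close means. In CD8 T cells with a Cd226 UMI, Pdcd1 averaged 183 against 184 CPM, Lag3 62.1 against 69.8 CPM and Havcr2 36.4 against 28.1 CPM. Each was higher in 2 of 3 libraries. In the same cells Eomes averaged 45.8 against 119 CPM and Entpd1, which encodes CD39, 14.4 against 26.4 CPM. Tox averaged 62.0 against 93.3 CPM, and these 3 genes were lower in all 3 libraries. In CD4 T cells with a Cd226 UMI, the cytokine gene Ifng averaged 96.9 against 30.0 CPM and Tnfsf8, which encodes CD30 ligand, 523 against 329 CPM. Both were higher in 3 of 3 libraries. Ifng was also higher in 3 of 3 libraries in CD4 T cells with a Tigit UMI (41.4 against 34.9 CPM). By Cd226 in CD8 T cells, Tnfsf8 averaged 36.2 against 36.5 CPM.

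Within cDC-like cells Nectin1 and Pvr moved with Ccr7 and Fscn1, genes of mature dendritic cells. In the 96 cells with 2 or more UMIs of this pair, Nectin1 averaged 153 ± 46.5 CPM (SD, n = 3 libraries) and was seen in 74.7% of cells, against 87.2 ± 19.9 CPM and 39.6% in the other 106. Pvr averaged 36.0 ± 7.60 against 16.5 ± 7.81 CPM. The genes and splits of both paragraphs were chosen after values were seen, cells with a UMI of a gene tend to be deeper, and no test was made.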
